A study of Mus musculus with 10 samples.

Results

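The genes described here encode heat shock proteins, DNAJ proteins and chaperonins, the protein-folding machinery of the mouse cell. Members were taken by gene symbol: symbols starting with Hsp followed by a, b, d, e, h or a digit, with Dnaj, or with Cct and a digit, plus the regulators Hsf1, Hsf2 and Bag3. Of 19938 genes with a probe set of their own on the arrays, 83 were members, measured by 106 probe sets. Hsf1, Hsp90ab1 and Hspa1b had no probe set that named them alone and are not analysed here as single genes. By symbol and role, the members comprised 45 DNAJ proteins, 13 proteins of the HSP70 and HSP110 families and 9 genes of the cytosolic chaperonin CCT. A further 8, with the symbol Hspb and a number, were grouped as small heat shock proteins. The rest were 2 HSP90 proteins, 2 mitochondrial chaperonins, 2 regulators and 2 proteins that bind heat shock proteins.

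RNA came from CD4+ spleen cells of female mice aged 8 weeks, taken with CD4 magnetic beads, and each sample was hybridised to 1 Affymetrix array. NOD mice (genotype label NODk), whose strain background is used to model autoimmune diabetes, were compared with B10 mice (genotype label B10Br), and cells kept for 4 hours with both PMA (10 ng/ml) and ionomycin (1 uM), labelled T1, were compared with unstimulated cells, labelled T0. The groups were NOD T1 (2 arrays, replicates 2 and 3), NOD T0 (3 arrays), B10 T1 (2 arrays, replicates 2 and 3) and B10 T0 (3 arrays). T0 is labelled the basal state, although the treatment text can be read as culture of the unstimulated cells as well. PMA activates protein kinase C and ionomycin lets calcium into the cell, so that the pair mimics T cell receptor signalling without the receptor. The labels call the arrays biological replicates without naming the animal behind each, so the p-values measure the spread between these samples.

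Chaperones hold or fold other proteins. HSP70 binds short exposed stretches of a chain, DNAJ proteins (J proteins) bring it clients and trigger its ATPase, HSP110 proteins release its ADP, and HSP90 takes over clients such as kinases and receptors at a late stage. Chaperonins are barrels that enclose a chain: CCT in the cytosol folds actin and tubulin, and HSP60 with its lid HSP10 works in the mitochondrial matrix. The endoplasmic reticulum (ER) has its own HSP70, HSP90 and J proteins. T cells that receive an activating signal grow and raise protein synthesis before they divide.

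Values are log2 intensities after RMA, a method that corrects background, gives all arrays one distribution and summarises probes. A difference is a log2 difference of group means with limma's standard error (SE), and a gene was called where its Benjamini-Hochberg adjusted p, over all 19938 genes, was under 0.05. Array medians lay between 6.18 and 6.23. Detection calls were not used here, so the fold of a dim gene is understated by an unknown amount, and levels of different probe sets are not set against each other. Cd4 itself read 9.06 to 9.75 log2 units on the T1 arrays of both strains, against 10.89 to 11.21 on the T0 arrays. Of 6 measured CD4 T cell markers, 4 were lower at T1 in NOD and 5 in B10. The mean of 6 measured B cell markers lay at 7.03 on both NOD T1 arrays, against 8.73 to 9.003 on NOD T0 arrays, and at 7.14 to 7.18 on B10 T1 arrays, against 8.58 to 8.85 on B10 T0 arrays. For 6 measured monocyte and macrophage markers the range was 7.15 to 7.52 in NOD T1, against 8.96 to 9.31 in NOD T0, and 6.85 to 7.05 in B10 T1, against 8.14 to 8.64 in B10 T0. In each strain 5 of the B cell markers and all 6 of the monocyte and macrophage markers were lower at T1, as were 4 of 6 neutrophil markers in NOD and 2 in B10. Of 2 CD8 markers 1 was lower at T1 in NOD and both in B10, as was 1 of 3 NK cell markers in each strain. Their part in the results below was not tested, and in these bulk samples fewer cells of a type and less RNA per cell cannot be told apart.

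In both strains 7 of 9 CCT genes, both mitochondrial chaperonins and several large chaperones of cytosol and mitochondria were higher at T1. J proteins moved both ways: 9 were lower in both strains, while others, Dnaja2, Dnaja3, Dnajb9 and Dnajc21 among them, were higher in both. In NOD cells 24 of the 83 members were higher at T1 and 13 lower, against 16.1% of all genes higher and 19.5% lower. In B10 cells 34 members were higher and 10 lower, against 13.7% and 18.1% of all genes. The median member differed by 0.15 log2 units in NOD and 0.12 in B10, and the median of all genes by 0.08 and 0.03. The same 23 members were higher in both strains (10.2% of all genes were), and the same 9 were lower in both (15.7% of all genes were). At least 2-fold changes among called members numbered 6 higher and 1 lower in NOD, where 3.36% and 5.73% of all genes passed that bar. In B10 there were 12 higher and 2 lower, where 4.09% and 5.32% of all genes passed it. Scaling the arrays to one 75th percentile moved the median of all genes to 0.21 in NOD and 0.10 in B10, and the NOD split to 35 members higher and 11 lower.

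**Figure D1:**
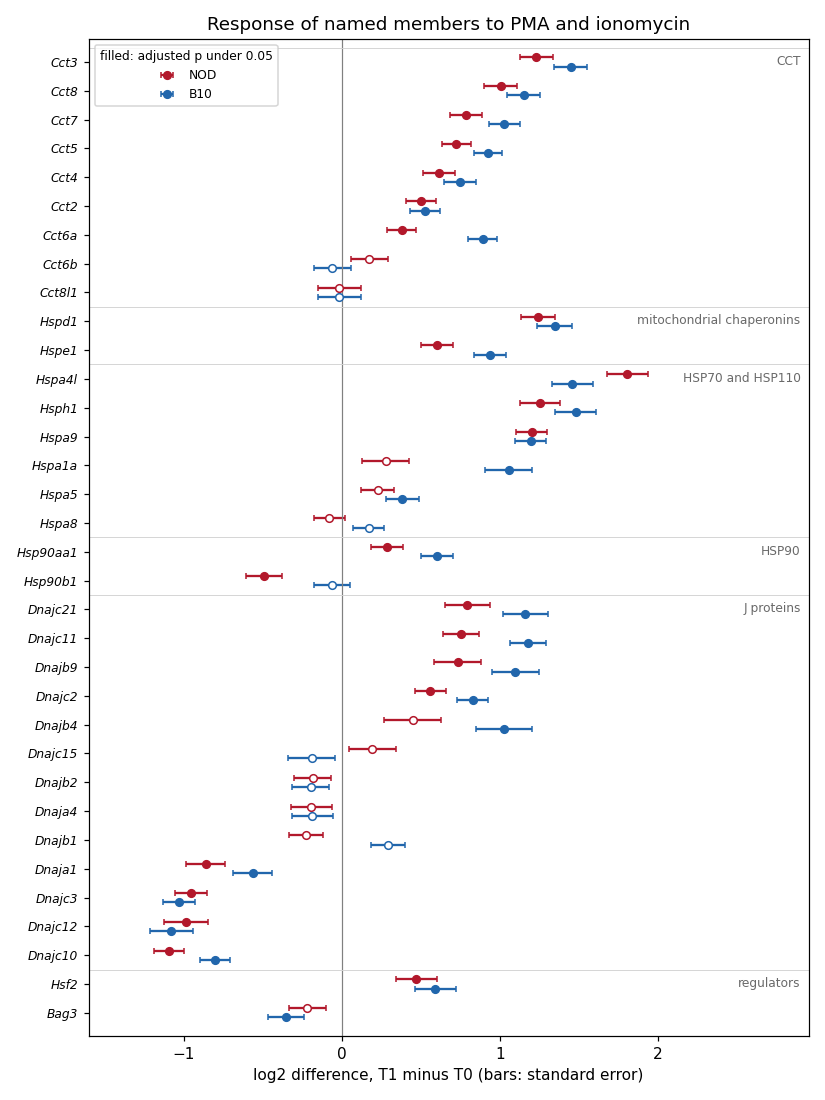
Differences between T1 and T0 (log2 units, points with bars of 1 standard error) for the 34 named members, NOD in red and B10 in blue, filled where the adjusted p was under 0.05. The 7 ring subunits of CCT, both mitochondrial chaperonins, Hspa4l, Hsph1 and Hspa9 sit to the right of 0 in both strains, while Dnaja1, Dnajc3, Dnajc12 and Dnajc10 sit to its left.

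CCT is a ring of 8 different subunits, and 7 of the 9 members with a Cct symbol were higher at T1 in both strains. That is 77.8%, against 16.1% of all genes higher in NOD and 13.7% in B10. The log2 differences of the 7 ran from 0.38 (Cct6a) to 1.23 (Cct3) in NOD and from 0.53 (Cct2) to 1.45 (Cct3) in B10. Cct3, the gamma subunit, read 11.43 and 11.42 log2 units on the NOD T1 arrays, against 10.19, 10.16 and 10.23 on the NOD T0 arrays. In B10 it read 11.52 and 11.55 at T1, against 9.90, 10.16 and 10.21 at T0. All stimulated arrays therefore lay above all unstimulated ones, and the difference was 2.35-fold in NOD (log2 1.23 ± 0.11 SE, adjusted p = 1.26e-06) and 2.72-fold in B10 (log2 1.45 ± 0.11, adjusted p = 3.22e-07). Cct8, the theta subunit, followed with 11.55 and 11.62 at NOD T1, against 10.62, 10.45 and 10.68 at NOD T0. Its B10 log2 intensities were 11.83 and 11.63 at T1, against 10.56, 10.59 and 10.60 at T0. The groups of each strain did not overlap, and the log2 difference was 1.00 ± 0.10 SE in NOD and 1.15 ± 0.10 in B10.

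The remaining ring subunits rose by less. Cct7 (eta) was higher by 0.79 log2 units in NOD and 1.03 in B10, and Cct5 (epsilon) by 0.72 and 0.92. Cct4 (delta) was higher by 0.61 and 0.75, with an adjusted p of 0.000337 in NOD and 6.17e-05 in B10 (limma). Cct2 (beta) had the smallest B10 rise of the ring, 0.53 ± 0.10 SE (adjusted p = 0.000711), beside 0.50 ± 0.10 in NOD (adjusted p = 0.00105). Subunit 1 carries the symbol Tcp1, outside the rule, and was higher too, by 0.52 log2 units in NOD and 0.75 in B10. The largest gap between strains was in Cct6a (zeta), at 10.63 and 10.59 log2 units in NOD T1, against 10.32, 10.17 and 10.20 in NOD T0. In B10 it read 11.05 and 10.93 at T1, against 10.11, 10.07 and 10.11 at T0. The NOD difference of 0.38 ± 0.09 was thus smaller than the B10 difference of 0.89 ± 0.09, by 0.51 log2 units, but this interaction did not pass (adjusted p = 0.191). It passed only in limma's alternative with trend and robust settings (adjusted p = 0.048). The 2 members outside the ubiquitous ring behaved otherwise. Cct6b, a testis form of the zeta subunit, stayed between 3.91 and 4.37 on all arrays (adjusted p = 0.271 in NOD and 0.774 in B10). Cct8l1, a gene similar to Cct8, stayed between 4.36 and 4.88, with differences of -0.02 in both strains and groups that overlapped.

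Genes of the mitochondrial folding route moved with the ring. Of 8 members assigned to mitochondria from textbook knowledge, 5 were higher in NOD and 6 in B10. The shares were 62.5% and 75%, against 16.1% and 13.7% of all genes. None of the 8 was lower by the adjusted limma test in either strain, against 19.5% and 18.1% of all genes. These counts hold for that assignment only: the J protein Dnajc28, lower in both strains, was left unassigned. Hspd1, the HSP60 chaperonin, read 11.70 and 11.69 log2 units at NOD T1, against 10.54, 10.32 and 10.51 at NOD T0. The B10 values were 11.85 and 11.73 at T1, against 10.32, 10.55 and 10.46 at T0. No stimulated array came near an unstimulated one, and the difference was 2.36-fold in NOD (log2 1.24 ± 0.11 SE, adjusted p = 1.46e-06) and 2.54-fold in B10 (log2 1.34 ± 0.11, adjusted p = 7.15e-07). Another probe set of Hspd1 gave log2 differences of 1.504 and 1.89. Hspe1, the HSP10 lid, read 11.19 and 11.06 at NOD T1, against 10.54, 10.46 and 10.58 at NOD T0. The B10 arrays read 11.38 and 11.28 at T1, against 10.48, 10.43 and 10.27 at T0. The lid gene's log2 differences, 0.60 ± 0.10 SE and 0.94 ± 0.10, were past the threshold in both strains. RefSeq names 5 pseudogenes of Hspd1 and 6 of Hspe1, whose transcripts these probe sets may share.

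Hspa9, the mitochondrial HSP70 that pulls proteins through the inner membrane, read 11.95 and 11.93 log2 units at NOD T1, against 10.84, 10.61 and 10.76 at NOD T0. B10 arrays gave 11.98 and 11.98 at T1, against 10.71, 10.83 and 10.81 at T0. The groups were apart in both strains, by 1.20 ± 0.10 SE in NOD and 1.19 ± 0.10 in B10. Dnaja3, its J protein in the matrix, was higher by 0.65 log2 units in NOD and 0.86 in B10. Dnajc11, a J protein of the mitochondrial membranes, was higher by 0.76 in NOD and 1.18 in B10. Dnajc30, another mitochondrial J protein, had a NOD difference of 0.30 (adjusted p = 0.0787) and was called in B10 (0.50). Dnajc19, of the import motor, differed by 0.13 and 0.29 and was called in neither strain. The mean levels and spreads appear in the plot of chaperonin genes by array.

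**Figure D2:**
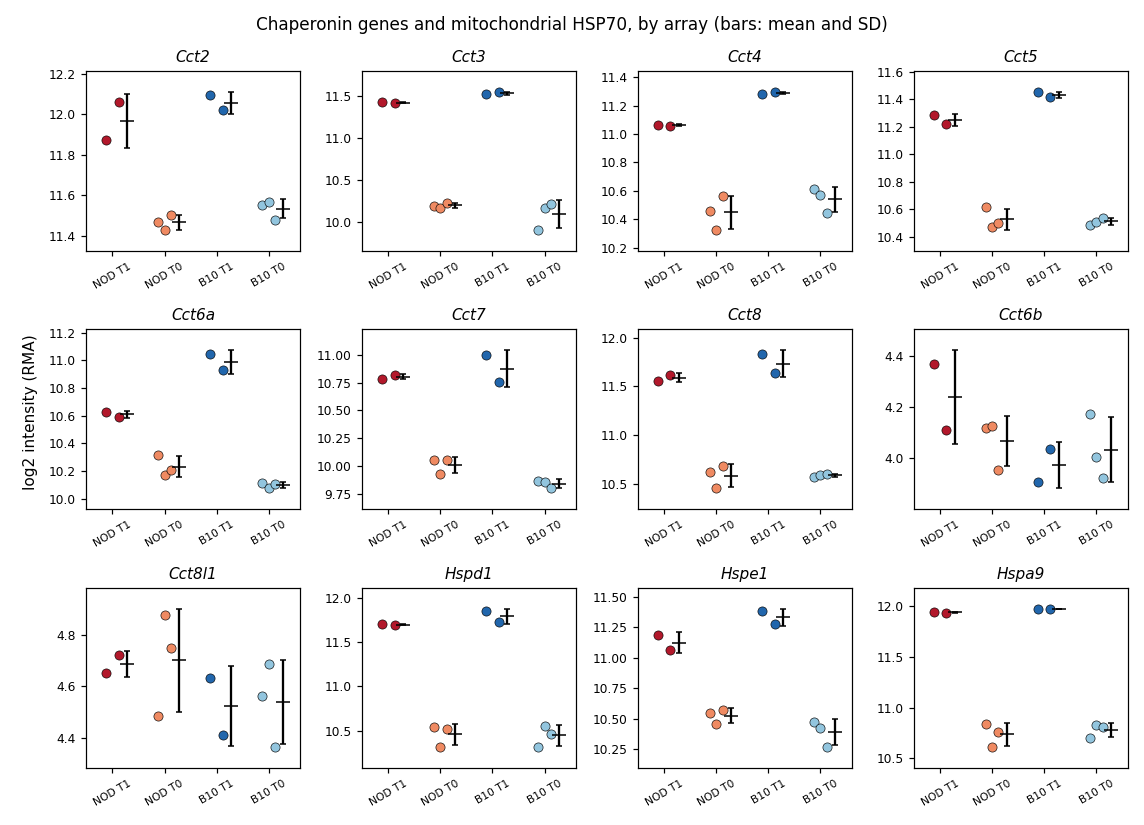
Log2 intensities (RMA) of the 9 CCT members, Hspd1, Hspe1 and Hspa9 on each array, in the order NOD T1, NOD T0, B10 T1, B10 T0, with bars for the mean and SD (n = 2 arrays at T1, n = 3 at T0) and a separate vertical scale for each gene. Stimulated and unstimulated arrays are apart in every panel other than Cct6b and Cct8l1, which lie below 5 log2 units.

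Hspd1 and Hspe1 are neighbours that point away from each other. Their promoter windows (RefSeq, GRCm38.p6, 250 bases before to 50 after the start) share 285 bases, so the Hspe1 window shows both. It spans chr1:55087898-55088197 on the plus strand. The windows of 2 other genes with at least 2-fold rises, Hsph1 in both strains and Hspa1a in B10, were chosen among those that hold the motif marked. They are Hsph1 at chr5:149636287-149636586 and Hspa1a at chr17:34972107-34972406, both on the minus strand. Dnajb4, which also rose at least 2-fold in B10, holds 1 pair, 14 bases before the start, in a window not shown (chr3:152193796-152194095). Hspa4l, Cct3, Cct7, Cct8, Dnajb9 and Dnajc21, whose rises were also at least 2-fold in 1 or both strains, hold no such pair in their windows. Hspa9 and Dnajc11, with rises of that size too, had no window here. Capitals mark pairs of heat shock element units, GAANNTTC or TTCNNGAA, the letters bound by heat shock factors; each reads the same on the other strand.
Hspe1: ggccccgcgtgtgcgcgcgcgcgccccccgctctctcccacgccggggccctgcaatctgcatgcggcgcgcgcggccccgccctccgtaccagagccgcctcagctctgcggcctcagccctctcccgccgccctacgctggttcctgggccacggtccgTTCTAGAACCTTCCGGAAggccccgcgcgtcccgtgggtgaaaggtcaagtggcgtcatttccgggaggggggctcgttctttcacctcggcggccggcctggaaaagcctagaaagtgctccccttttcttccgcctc
Hsph1: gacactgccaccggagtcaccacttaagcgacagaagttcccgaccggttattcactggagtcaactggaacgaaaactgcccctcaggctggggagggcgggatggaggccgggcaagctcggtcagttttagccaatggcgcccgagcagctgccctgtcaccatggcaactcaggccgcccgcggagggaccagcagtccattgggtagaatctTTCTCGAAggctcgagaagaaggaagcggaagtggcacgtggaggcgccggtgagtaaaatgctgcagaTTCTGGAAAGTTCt
Hspa1a: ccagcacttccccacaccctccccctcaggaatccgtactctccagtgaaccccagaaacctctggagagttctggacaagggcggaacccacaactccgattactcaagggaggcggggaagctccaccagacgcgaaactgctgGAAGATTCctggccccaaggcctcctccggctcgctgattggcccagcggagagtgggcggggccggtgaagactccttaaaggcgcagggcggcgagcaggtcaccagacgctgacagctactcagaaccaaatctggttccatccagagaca
In the Hspe1 window 3 overlapping pairs start 89, 84 and 79 bases before the gene's start. The Hsph1 window holds a pair 33 bases before the start and 2 overlapping pairs at bases 37 and 42 after it. In the Hspa1a window 1 pair starts 104 bases before the start.

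Of the 83 members, 69 had such a window, and 20 of them (29.0%) held at least 1 pair, against 4587 of all 27025 genes with windows (17.0%). A run of 3 alternating units , GAANNTTCNNGAA or TTCNNGAANNTTC on either strand, contains 2 overlapping pairs. It was found in 4 members (5.80%), Hspd1, Hspe1, Hsph1 and Dnajb6, against 179 genes in all (0.662%). The Hspd1 and Hspe1 matches are the same run in the shared bases, counted once for each gene here and in the shares that follow. Among members higher at T1 in both strains, 7 of 18 windows (38.9%) held a pair, among those lower in both 2 of 8 (25%), and among the others 11 of 43 (25.6%). Of 8 CCT members with a window, 4 held a pair and none held 3 units. A gene with several windows counted once if any of them matched. These are matches of letters, described without a test.

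In the HSP70 and HSP110 families 4 of 13 members were higher at T1 in NOD and 6 in B10, and none was lower. As shares 30.8% were higher in NOD and 46.2% in B10, against 16.1% and 13.7% of all genes. Of all genes 19.5% were lower in NOD and 18.1% in B10. Hspa4l, an HSP110 protein, had the highest NOD fold of all members. Its log2 intensities were 10.88 and 10.46 at NOD T1, against 8.84, 8.96 and 8.79 at NOD T0. In B10 they were 10.36 and 10.64 at T1, against 9.05, 9.02 and 9.06 at T0. These separate groups gave a 3.49-fold difference in NOD (log2 1.81 ± 0.13 SE, adjusted p = 2.89e-07) and 2.74-fold in B10 (log2 1.46 ± 0.13, adjusted p = 1.81e-06). Hsph1, the HSP110 protein HSP105, read 10.69 and 10.65 at NOD T1, against 9.46, 9.36 and 9.42 at NOD T0. The B10 arrays gave 10.82 and 10.78 at T1, against 9.03, 9.45 and 9.48 at T0. Its T1 and T0 values were over 1 log2 unit apart in both strains, with differences of 1.25 ± 0.13 SE (adjusted p = 5.94e-06) in NOD and 1.48 ± 0.13 (adjusted p = 1.38e-06) in B10. Hspa4, the third cytosolic HSP110 gene, differed by 0.07 log2 units in each strain and was called in neither.

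The inducible and constitutive cytosolic HSP70 genes gave another picture. Hspa1a, the classical heat-inducible HSP70, read 7.04 and 7.47 log2 units at NOD T1, against 6.88, 7.07 and 6.98 at NOD T0, so the NOD groups overlapped. In B10 it read 8.12 and 8.19 at T1, against 6.84, 7.22 and 7.24 at T0, with no overlap. The NOD difference was 0.28 ± 0.15 SE log2 units (adjusted p = 0.169), and the B10 rise was 1.06 ± 0.15 (adjusted p = 8.77e-05). The NOD difference had an adjusted p of 0.0363 (log2 0.49) once NOD T1 replicate 2 was left out. The interaction, -0.78 ± 0.21, did not pass (adjusted p = 0.216). Hspa1a and Hspa1b are near-identical, and these probes may read both. Hspa8, the constitutive HSP70, read 12.79 and 12.88 at NOD T1, against 12.91, 12.94 and 12.90 at NOD T0, and 13.01 and 12.91 at B10 T1, against 12.66, 12.88 and 12.82 at B10 T0. Its differences of -0.08 and 0.17 were called in neither strain (adjusted p = 0.556 and 0.236). A second Hspa8 probe set gave differences of -0.08 and 0.19, but the remaining one read 11.26 and 11.66 at NOD T1, against 11.98, 11.68 and 11.74 at NOD T0, and 13.26 and 13.26 at B10 T1, against 12.95, 13.08 and 13.16 at B10 T0. The response was called in neither strain on that probe set either (log2 -0.34 and 0.196, adjusted p = 0.105 and 0.381 over all probe sets), but it separated the strains, as given with the strain comparison. Which of the 3 reads Hspa8 itself, and whether any reads a related copy, was not tested. Hspa1l, a testis-enriched HSP70, was called in NOD at a low level, with 5.36 and 5.31 at T1, against 5.08, 5.07 and 4.96 at T0 (log2 0.30 ± 0.09). Hspa14, a ribosome-associated HSP70, and Hspa2, Hspa12a and Hspa12b were called in neither strain, with differences from -0.35 to 0.20 in NOD and from -0.30 to 0.07 in B10.

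HSP90 was represented by its stress-inducible cytosolic form and its ER form. Hsp90aa1 read 12.68 and 12.85 log2 units at NOD T1, against 12.51, 12.50 and 12.44 at NOD T0. Its B10 values were 12.87 and 12.75 at T1, against 12.13, 12.32 and 12.17 at T0. Stimulated arrays were the higher ones in both strains, by 0.28 ± 0.10 SE in NOD (adjusted p = 0.0466) and by 0.60 ± 0.10 in B10 (adjusted p = 0.000425). The other probe sets of Hsp90aa1 gave 0.28 and 0.35 in NOD and were not called (adjusted p = 0.0691 and 0.0515, limma over all probe sets). In B10 they gave 0.63 and 0.71 and were called. Which of the 3 probe sets reads Hsp90aa1 itself, and whether any reads a related copy, was not tested. The NOD call ended when any array other than NOD T1 replicate 2 was left out, with log2 differences between 0.20 and 0.37 over all arrays left out and adjusted p from 0.0526 to 0.272. Hsp90b1, the ER form GRP94, was lower in NOD with 11.03 and 11.13 at T1, against 11.54, 11.57 and 11.59 at T0 (log2 -0.49 ± 0.12, adjusted p = 0.00465). In B10 its 11.41 and 11.11 at T1 overlapped with 11.21, 11.48 and 11.28 at T0 (log2 -0.06 ± 0.12, adjusted p = 0.758).

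**Figure D3:**
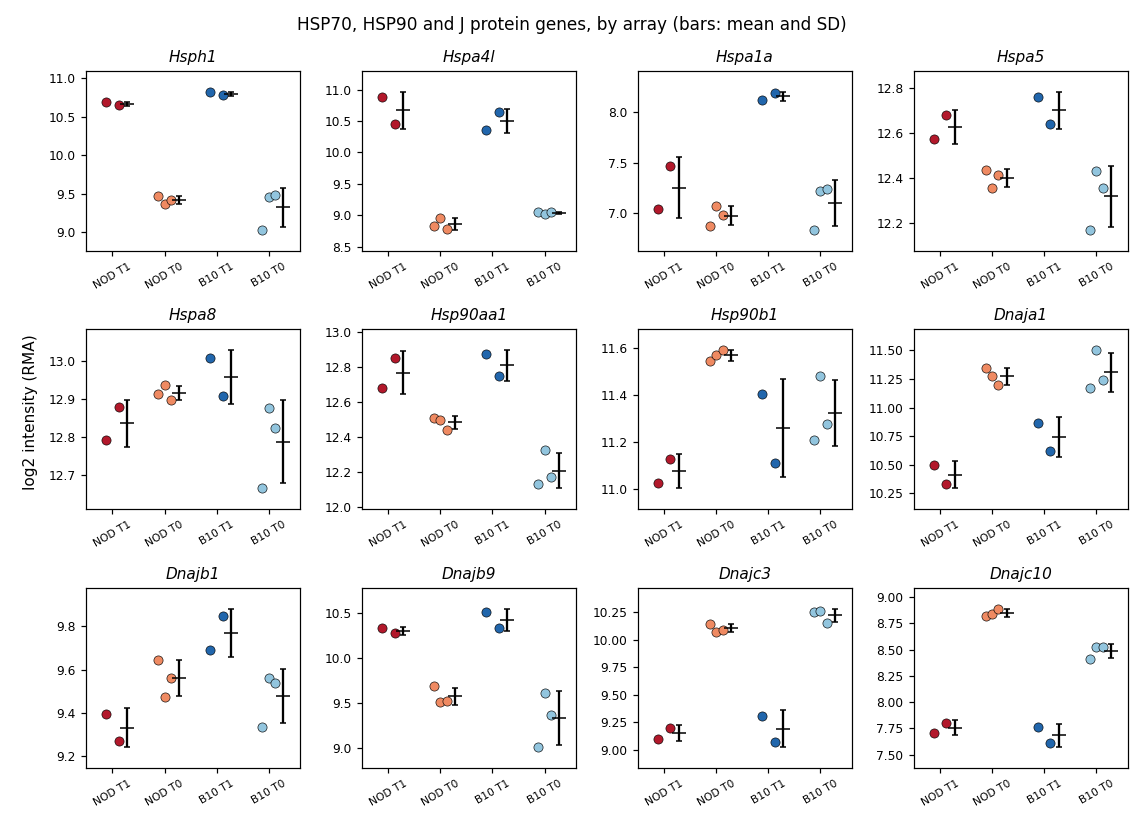
Log2 intensities (RMA) of 12 HSP70, HSP90 and J protein genes on each array, in the order NOD T1, NOD T0, B10 T1, B10 T0, with bars for the mean and SD (n = 2 arrays at T1, n = 3 at T0) and a separate vertical scale for each gene. Hspa1a stands above 8 log2 units on the B10 T1 arrays alone, the Hspa8 probe set plotted stays between 12.66 and 13.01 log2 units on all 10 arrays (another Hspa8 probe set, not plotted, runs from 11.26 to 13.26), and Dnajc3 and Dnajc10 are lower on every T1 array than on any T0 array.

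Of 9 members assigned to the ER from textbook knowledge, 1 was higher and 3 lower in NOD, and 5 were higher and 2 lower in B10. In NOD that is 11.1% and 33.3%, against 16.1% and 19.5% of all genes. In B10 it is 55.6% and 22.2%, against 13.7% and 18.1% of all genes. These counts hold for that assignment only. Left unassigned were Dnajb12 and Dnajc14, lower in both strains, Dnajc18, lower in NOD, and Dnajc16, higher in B10. Hspa5, the ER HSP70 called BiP, read 12.57 and 12.68 log2 units at NOD T1, against 12.44, 12.36 and 12.41 at NOD T0, and 12.76 and 12.64 at B10 T1, against 12.17, 12.43 and 12.36 at B10 T0. T1 arrays were higher in both strains, but the difference was not called in NOD (0.23 ± 0.10 SE, adjusted p = 0.112) and was called in B10 (0.38 ± 0.10, adjusted p = 0.0121). The NOD difference passed with scaling to one 75th percentile (0.35, adjusted p = 0.0218) and with trend and robust settings (adjusted p = 0.0276). The B10 call ended without B10 T1 replicate 2 (0.32, adjusted p = 0.107) and with the replicate block (0.31, adjusted p = 0.0725). Dnajb9, the J protein ERdj4 that binds BiP at the stress sensor IRE1, read 10.34 and 10.27 at NOD T1, against 9.68, 9.51 and 9.52 at NOD T0, and 10.51 and 10.34 at B10 T1, against 9.01, 9.61 and 9.36 at B10 T0. It rose by 0.73 ± 0.15 in NOD and 1.10 ± 0.15 in B10. Dnajb11, the abundant ER J protein ERdj3, differed by 0.02 and 0.12 and was called in neither. Hspa13, a small HSP70 of the ER, and the ER membrane J proteins Dnajc1 and Dnajc25 had NOD differences of 0.07, 0.13 and 0.27 that were not called and were called higher in B10 by 0.52, 0.36 and 0.38.

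The ER J proteins Dnajc3 and Dnajc10 fell in both strains. Dnajc3, known as P58IPK and as an inhibitor of the stress kinase PERK, read 9.10 and 9.20 log2 units at NOD T1, against 10.14, 10.07 and 10.09 at NOD T0. The B10 values were 9.31 and 9.07 at T1, against 10.25, 10.26 and 10.15 at T0. Every T1 array was lower, and the gene fell by 0.95 ± 0.10 SE in NOD and 1.03 ± 0.10 in B10. Dnajc10, the disulfide reductase ERdj5, read 7.71 and 7.81 at NOD T1, against 8.82, 8.84 and 8.89 at NOD T0. Its B10 levels were 7.76 and 7.61 at T1, against 8.41, 8.52 and 8.53 at T0. It fell by 1.09 ± 0.10 in NOD (2.13-fold lower, adjusted p = 1.48e-06) and by 0.80 ± 0.10 in B10 (adjusted p = 2.13e-05), from T0 levels that differed between the strains.

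Across all 45 J proteins 8 were higher and 11 lower in NOD, and 15 were higher and 9 lower in B10, with median log2 differences of -0.01 and 0.10. As shares these were 17.8% higher and 24.4% lower in NOD, near the 16.1% and 19.5% of all genes, and 33.3% and 20% in B10, against 13.7% and 18.1% of all genes. Among type A J proteins, the main partners of cytosolic HSP70, Dnaja2 rose by 0.47 log2 units in NOD and 0.73 in B10, while Dnaja1 fell. Dnaja1 read 10.50 and 10.33 at NOD T1, against 11.34, 11.28 and 11.20 at NOD T0. In B10 it read 10.87 and 10.62 at T1, against 11.17, 11.50 and 11.24 at T0. T1 arrays were lower in both strains, by 0.86 ± 0.12 SE in NOD (adjusted p = 0.000103) and by 0.56 ± 0.12 in B10 (adjusted p = 0.0028), so 2 genes of one class moved opposite ways. The B10 call ended when both B10 arrays of replicate 3 were left out (-0.47, adjusted p = 0.0626). Red cell markers on those arrays stood above those of the other B10 arrays. RefSeq names 1 pseudogene of Dnaja1, whose transcript the Dnaja1 probe set may share.

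Dnajb1, the heat-inducible partner of HSP70, read 9.39 and 9.27 log2 units at NOD T1, against 9.64, 9.48 and 9.56 at NOD T0, and 9.69 and 9.85 at B10 T1, against 9.34, 9.56 and 9.54 at B10 T0. The arrays of the 2 strains lay on opposite sides of their T0 values, but neither difference passed (-0.23, adjusted p = 0.122 in NOD; 0.29, adjusted p = 0.0559 in B10), nor did the interaction (-0.52, adjusted p = 0.28). The B10 difference passed with scaling to one 75th percentile (0.36, adjusted p = 0.0151), with trend and robust settings (adjusted p = 0.0267) and with only brighter genes (adjusted p = 0.0274). Dnajb4, a cytosolic J protein of the same class, read 10.20 and 9.72 at NOD T1, against 9.50, 9.44 and 9.60 at NOD T0. On B10 arrays it read 9.91 and 10.21 at T1, against 8.76, 8.98 and 9.37 at T0. Its NOD difference of 0.45 ± 0.18 SE missed the threshold (adjusted p = 0.0701), and in B10 it rose by 1.03 ± 0.18 (adjusted p = 0.000521). The NOD difference passed without NOD T1 replicate 3 (0.69, adjusted p = 0.024) or B10 T0 replicate 3 (adjusted p = 0.0371).

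Dnajc21 and Dnajc2, J proteins tied to ribosomes, were higher in both strains. Dnajc21, a factor of large ribosomal subunit assembly, read 9.52 and 9.12 log2 units at NOD T1, against 8.68, 8.44 and 8.47 at NOD T0, and 9.55 and 9.53 at B10 T1, against 8.18, 8.39 and 8.57 at B10 T0. It rose by 0.79 ± 0.14 SE in NOD and 1.16 ± 0.14 in B10. Dnajc2, which sits with Hspa14 at the ribosome exit, rose by 0.56 ± 0.10 and 0.83 ± 0.10, and its levels are given with the strain comparison. Dnajc27, a Rab-like protein with a J domain, rose by 0.87 and 0.76, and Dnajc17, a splicing-related J protein, by 0.29 and 0.37. Among the falls, Dnajc12, a J protein known as a partner of aromatic amino acid hydroxylases, read 7.07 and 6.84 at NOD T1, against 8.11, 7.94 and 7.76 at NOD T0, and 6.94 and 6.86 at B10 T1, against 7.77, 8.19 and 7.98 at B10 T0. It fell by 0.98 ± 0.14 in NOD and 1.08 ± 0.14 in B10. Dnajc7, which binds both HSP70 and HSP90, fell by 0.92 and 0.64, and Dnajc14 fell by 0.77 and 0.73. Dnajc28 fell by 0.74 and 0.55, Dnajc6, the clathrin uncoating factor auxilin, by 0.51 in each strain, and Dnajb12, an ER membrane J protein that is not among the 9 counted for the ER, by 0.28 and 0.43.

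Small heat shock proteins hold unfolded chains without ATP. The 8 members grouped with them were taken by the symbol Hspb and a number alone, Hspb11 among them. None of the 8 was called in NOD by the adjusted limma test, where 16.1% of all genes were higher and 19.5% lower. In B10 1 was higher (12.5%, near the 13.7% of all genes), Hspb8 (0.36 ± 0.12 SE, adjusted p = 0.0389). None was lower there, against 18.1% of all genes. Hspb1, the small heat shock protein HSP27, lay between 5.69 and 6.11 log2 units on all arrays, with differences of 0.16 and 0.20 that were called in neither strain. Of the regulators, Hsf2, a heat shock transcription factor, read 8.51 and 8.06 at NOD T1, against 7.91, 7.82 and 7.71 at NOD T0, and 8.63 and 8.55 at B10 T1, against 7.90, 8.06 and 8.05 at B10 T0. It was higher in NOD by 0.47 ± 0.13 (adjusted p = 0.0126) and in B10 by 0.59 ± 0.13 (adjusted p = 0.00301). The NOD call ended without NOD T1 replicate 2 (0.25, adjusted p = 0.157). Bag3, a cochaperone that links HSP70 to small heat shock proteins and autophagy, read 6.44 and 6.49 at NOD T1, against 6.57, 6.83 and 6.64 at NOD T0, and 6.24 and 6.21 at B10 T1, against 6.48, 6.76 and 6.50 at B10 T0. In NOD it lay below its T0 arrays without a call (-0.22 ± 0.11, adjusted p = 0.163), and in B10 it was lower (-0.35 ± 0.11, adjusted p = 0.0309). The B10 call ended without B10 T0 replicate 2, B10 T1 replicate 2 or B10 T1 replicate 3, with adjusted p from 0.0972 to 0.137. Hspbp1, which makes HSP70 release ADP, rose by 0.51 in NOD and 0.48 in B10.

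Partners of the members were read from lists of proteins outside the rule. Of 16 HSP90 cochaperones, 8 were higher and 2 lower in NOD, and 8 higher and none lower in B10, with median log2 differences of 0.20 and 0.35. As shares these were 50% and 12.5% in NOD, against 16.1% and 19.5% of all genes. In B10 they were 50% and 0%, against 13.7% and 18.1% of all genes. Ppid, the cyclophilin of HSP90, read 10.58 and 10.37 log2 units at NOD T1, against 8.80, 8.58 and 8.85 at NOD T0, and 10.59 and 10.46 at B10 T1, against 8.90, 8.99 and 8.91 at B10 T0. It rose by 1.73 ± 0.11 SE in NOD and 1.60 ± 0.11 in B10. Ruvbl1 and Ruvbl2, ATPases that work with HSP90 on large complexes, rose by 1.56 and 1.38 in NOD and by 1.78 and 1.20 in B10. Ahsa2 and Cdc37l1 were called lower in NOD, by 0.61 and 0.35, and not in B10. In the list of 12 HSP70 exchange factors and cochaperones, 6 were higher (50%) and 1 lower (8.33%) in each strain, with medians of 0.32 and 0.41. The shares of all genes were 16.1% higher and 19.5% lower in NOD, and 13.7% and 18.1% in B10. Bag5 rose by 1.13 in NOD and 1.68 in B10, St13 by 0.89 and 1.11, and Grpel1, the exchange factor of Hspa9, by 0.57 and 0.80. Bag6 was called lower in NOD alone, by 0.37, and Sil1 in B10 alone, by 0.45.

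Prefoldin hands chains to CCT. Of 10 prefoldin genes and CCT helpers 3 were higher and 2 lower in NOD and 4 higher and 1 lower in B10. The shares were 30% and 20% in NOD, against 16.1% and 19.5% of all genes, the lower share being near that of all genes. In B10 the shares were 40% and 10%, against 13.7% and 18.1% of all genes. Pfdn2 rose by 1.03 log2 units in NOD and 1.46 in B10 and Pfdn4 by 1.06 and 1.62, while Pdcl, a phosducin-like CCT cofactor, fell by 1.20 and 1.10. Of 12 mitochondrial folding and protease genes, 7 were higher and 2 lower in NOD and 7 higher and 1 lower in B10, with medians of 0.55 and 0.49. That is 58.3% and 16.7% in NOD and 58.3% and 8.33% in B10, beside the same shares of all genes. Clpp, the matrix protease, rose by 1.14 and 1.43. Yme1l1 fell by 0.68 in NOD and 0.49 in B10, and Htra2 was called lower in NOD alone, by 0.38. Of 22 genes of ER stress and ER folding, 4 were higher and 8 lower in NOD, and 6 were higher and 6 lower in B10. Their medians were -0.20 and 0.04. The higher share in NOD, 18.2%, was near the 16.1% of all genes, and the lower share was 36.4%, against 19.5% of all genes. In B10 both shares were 27.3%, against 13.7% of all genes higher and 18.1% lower. Eif2ak3, which encodes PERK, read 8.01 and 7.47 at NOD T1, against 9.70, 9.57 and 9.69 at NOD T0, and 8.21 and 8.83 at B10 T1, against 9.94, 10.05 and 10.29 at B10 T0. It fell by 1.91 ± 0.19 SE and 1.57 ± 0.19, and Pdia3, an ER disulfide isomerase, fell by 0.93 and 0.71. Ppp1r15a, which encodes the phosphatase subunit GADD34, rose by 1.13 in NOD and 1.45 in B10.

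Members were called between the strains about as often as all genes were. At T1 the adjusted limma test called 1 member higher (1.20%) and 2 lower (2.41%) in NOD than in B10, near the 1.77% and 1.83% of all genes. At T0 it called 3 higher (3.61%) and 2 lower (2.41%), near the 3.44% and 2.35% of all genes. These counts rest on 1 probe set a gene, and the remaining Hspa8 probe set described above, which is not the one used for that gene, was lower in NOD by 1.80 ± 0.15 SE log2 units at T1 (adjusted p = 0.00091 over all probe sets) and by 1.26 ± 0.12 at T0 (adjusted p = 0.000684). The Hspa8 probe set used differed by -0.12 and 0.13 and was called at neither time. No other unused probe set of the 8 members with several was called between the strains. Dnajc15, a J protein of the mitochondrial inner membrane, read 7.31, 7.03 and 6.95 log2 units at NOD T0, against 8.13, 8.03 and 7.92 at B10 T0. At T1 it read 7.53 and 7.04 in NOD, against 7.86 and 7.80 in B10. NOD arrays were lower at both times, by 0.93 ± 0.13 SE at T0 (1.90-fold lower, adjusted p = 0.00155) and 0.54 ± 0.16 at T1 (adjusted p = 0.0945). Dnajc2 read 7.67 and 7.57 in NOD at T1, against 8.34 and 8.23 in B10. At T0 it read 7.08, 7.06 and 7.05 in NOD, against 7.56, 7.43 and 7.38 in B10. It was called lower in NOD at both times (log2 -0.66 ± 0.10, adjusted p = 0.00535 at T1; log2 -0.39 ± 0.09, adjusted p = 0.0163 at T0), with no overlap of strains. Hspa1a, with the T1 values given above, was lower in NOD at T1 by 0.90 ± 0.16 (1.87-fold lower, adjusted p = 0.0102). At T0 its strains overlapped (log2 -0.12, adjusted p = 0.783). A probe set shared by Hspa1a and Hspa1b was not called between the strains at T1. Its difference there was -0.70 ± 0.17 (adjusted p = 0.0843, limma over all probe sets). The T1 calls of Dnajc2 and Hspa1a ended without B10 T1 replicate 2 (adjusted p = 0.0619 and 0.0631).

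The J proteins Dnajb2, Dnaja4 and Dnajc10 were higher in NOD. Dnajb2, a J protein with ubiquitin-binding motifs, read 6.94 and 6.94 log2 units in NOD at T1, against 6.33 and 6.54 in B10, and 7.18, 6.92 and 7.27 in NOD at T0, against 6.60, 6.62 and 6.67 in B10. It was higher by 0.50 ± 0.13 SE at T1, just under the threshold of 0.05, and by 0.49 ± 0.10 at T0 (adjusted p = 0.0141). Dnaja4, a type A J protein, read 8.10, 8.17 and 8.27 in NOD at T0, against 7.56, 7.62 and 7.76 in B10 (log2 0.54 ± 0.12, adjusted p = 0.0164). At T1 its 7.87 and 8.10 in NOD, against 7.26 and 7.66 in B10, gave 0.53 ± 0.14 (adjusted p = 0.0643). Dnajc10, with the T0 values given above, was higher in NOD by 0.36 ± 0.09 (adjusted p = 0.026). Most of these calls lay near the threshold. At T0 that of Dnaja4 ended without B10 replicate 1 or 2 or NOD replicate 3 (adjusted p from 0.0664 to 0.087), and those of Dnajb2 and Dnajc2 without B10 replicate 1 or 2 or NOD replicate 1 or 3 (adjusted p from 0.0558 to 0.0842). The T0 call of Dnajc10 ended without any 1 of the 6 T0 arrays (adjusted p from 0.0509 to 0.128), and the T1 call of Dnajb2 without any array other than NOD T0 replicate 2 and B10 T1 replicate 3 (adjusted p from 0.0548 to 0.302).

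Markers of red cell precursors moved with the strain. The mean of Alas2, Klf1 and Car2 was 10.31 and 10.72 log2 units in NOD at T1, against 7.74 and 9.48 in B10, and 10.47, 10.13 and 10.68 in NOD at T0, against 8.16, 7.31 and 9.38 in B10. All 3 were called higher in NOD at T0, as were 4 of 6 monocyte and macrophage markers and 2 of 6 neutrophil markers. With the red cell marker mean as a covariate, an alternative chosen after the data were seen, no member was called between the strains at either time by limma. Dnaja4 then stood 0.22 log2 units higher in NOD at T0 (adjusted p = 0.829), Dnajc15 stood at -0.77 (adjusted p = 0.194) and Hspa1a at T1 at -0.99 (adjusted p = 0.0859). The markers differ so much by strain that this fit leaves little to tell the strain from them, and the part of the other cells was not tested.

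**Figure D4:**
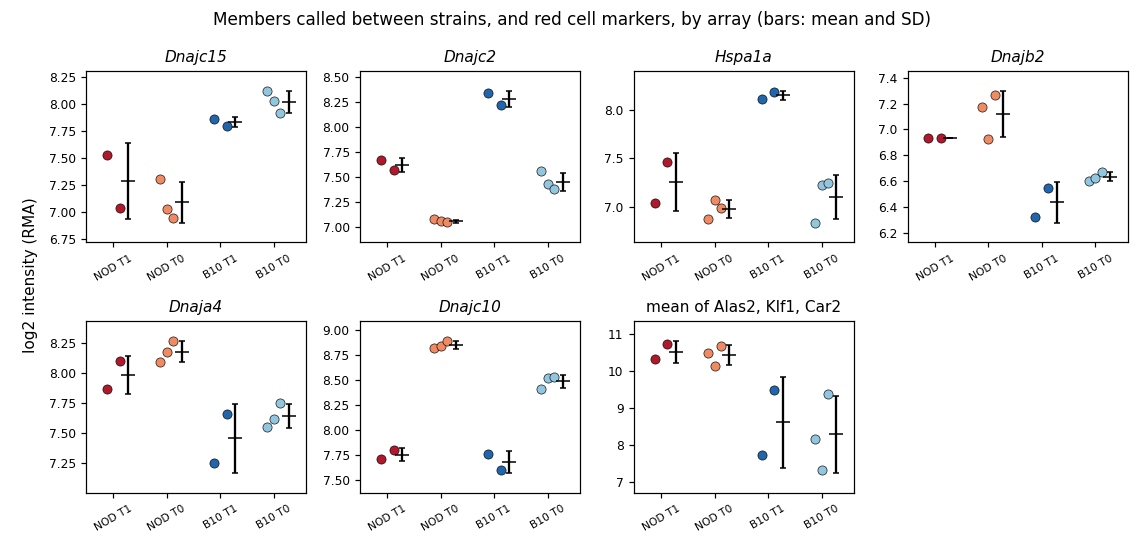
Log2 intensities (RMA) of the 6 members called between the strains, and the mean of 3 red cell markers, on each array in the order NOD T1, NOD T0, B10 T1, B10 T0, with bars for the mean and SD (n = 2 arrays at T1, n = 3 at T0). Dnajc15 and Dnajc2 are lower and Dnajb2 and Dnaja4 higher on NOD arrays at both times, Hspa1a is apart at T1 alone, and the red cell markers are above 10 log2 units on all 5 NOD arrays and below 9.5 on all 5 B10 arrays.

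The response to stimulation was compared between the strains by the interaction, the NOD difference minus the B10 difference. By limma none of the 83 members was called, against 0.246% of all genes, and 11 members had an unadjusted p under 0.05, as did 1841 of the 19938 genes. The median interaction was -0.12 log2 units over the members and 0.01 over all genes. Calls made in 1 strain and not in the other, such as those of Hspa1a, Hspa5, Dnajb4 and Hsp90b1, are therefore not shown to differ between the strains.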

How the data were processed

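The authors made the deposited log2 intensities with RMA in Affymetrix Power Tools, per the submitters' processing notes; version, options, probe annotation and build are not given in the sources used here, and a base of 2 was read from how far the values reach. The table held 35486 probe sets on 10 arrays. The platform table gave 1 gene symbol for 21789, several for 1621 and none for 12076. Each of 19938 genes was represented by its brightest probe set (mean of the 10 arrays), with no filter on dim genes; 8 members had several. A limma 3.58.1 model (R 4.3.3) of 4 group means was fitted to all genes and arrays (6 residual and 6.30 prior degrees of freedom), with eBayes, two-sided tests and Benjamini-Hochberg adjustment per contrast at 0.05. The script was tested on simulated data. The number of arrays limits precision.

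Members and lists were chosen with earlier results of these data known. Named members were those called between strains, in the interaction or with at least a 2-fold response, all CCT genes, and a set of main chaperones and regulators; others are given by count or as examples. In the lists of partners the 3 largest rises, the 2 largest falls and Tcp1 could be named. Markers of CD4 and CD8 T cells, B cells, monocytes and macrophages, neutrophils, red cell precursors and NK cells were read on the same arrays. Replicate 1 of T1 is not analysed here. Alternatives changed the scaling, the probe set per gene, the probe sets tested, a filter on dim genes, the eBayes settings, array weights, the replicate block, the arrays fitted and each array left out. Promoters came from RefSeq (GRCm38.p6).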

Additional observations from a re-analysis of the deposited data

Results flagged for a closer look

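Probe sets that name a member together with another gene stayed out of the gene tests, and 3 of them differed between T1 and T0 in both strains. The probe set shared by Hspa1a and Hspa1b read 8.65 and 9.14 log2 units at NOD T1, against 8.17, 8.22 and 8.26 at NOD T0, and 9.44 and 9.75 at B10 T1, against 8.11, 8.39 and 8.27 at B10 T0. Its log2 difference was 0.68 in NOD (adjusted p = 0.011, limma over all probe sets) and 1.33 in B10, and its interaction of -0.66 did not pass (adjusted p = 0.479). One probe set shared by Hspa8 with the small nucleolar RNA genes Snord14c and Snord14d was higher at T1 by 0.75 in NOD and 0.95 in B10, and a further one by 0.75 and 0.94, while the Hspa8 probe set used above differed by -0.08 and 0.17. Whether the small nucleolar RNAs or Hspa8 moved cannot be told apart on these probe sets. The 4 probe sets shared by Gm4247 and Dnajb6 were lower at T1 in NOD by 0.38 to 0.40 log2 units. In B10 their differences, from -0.20 to -0.18, were not called. Those shared by Dnajb14 and Pin4 were lower at T1 in NOD by 0.32 and 0.33 (adjusted p = 0.0251 and 0.0188, limma over all probe sets). In B10 they differed by -0.06 and -0.08 and were not called.

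The responses of Dnajb1 and Hspa8 lay on opposite sides of 0 in NOD and B10 on every array. The difference between the responses was -0.52 log2 units for Dnajb1 (adjusted p = 0.28) and -0.25 for Hspa8 (adjusted p = 0.619), and neither passed.

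The Hspa8 probe set that separated the strains is not used in the gene tests. NOD minus B10 was -1.80 log2 units at T1 and -1.26 at T0 on it, and -0.12 and 0.13 on the probe set used.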

How the results depend on the processing

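Over the alternatives, members called higher at T1 numbered 21 to 35 in NOD and 25 to 36 in B10, and those lower 11 to 13 and 7 to 12; the NOD maximum of 35 came from scaling to one 75th percentile and the B10 minimum of 25 without B10 T1 replicate 2. Between strains at T1 (1 member higher and 2 lower in NOD), counts higher were 0 with array weights, every probe set tested, only the arrays of the groups compared, the replicate block or the red cell covariate, 2 with trend and robust settings or only brighter genes, and 0 to 2 with 1 array left out. Counts lower were 5 with trend and robust settings or only brighter genes, 0 with only the arrays compared or the red cell covariate, and 0 to 5 with 1 array left out. At T0 (3 higher and 2 lower), counts higher were 7 with array weights, 5 with trend and robust settings or the replicate block, 0 with the red cell covariate and 0 to 3 with 1 array left out; counts lower were 0 with the covariate and 1 to 2 with 1 array left out. Trend and robust settings called 1 member, Cct6a, lower in the interaction, where limma's main settings called 0. The cause of these moves was not tested. With the replicate number as a block, 22 members were higher and 11 lower in NOD and 31 and 11 in B10. Same-numbered T1 and T0 arrays had deviations that correlated at 0.41 and 0.40 in B10 and at -0.01 and 0.22 in NOD. Arrays of unlike number ran from -0.41 to 0.04 in B10 and from -0.22 to 0.21 in NOD. With 2 T1 arrays in a strain their deviations are equal and opposite, so these correlations cannot show whether numbers pair arrays. No label says that a number marks a shared animal or day.

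Uncalled values near 0 changed sign. Scaling to one 75th percentile gave 0.00667 for Cct6b in B10, 0.109 and 0.0502 for Cct8l1 in NOD and B10, 0.00363 for Hsp90b1 in B10 and 0.0452 for Hspa8 in NOD. The block gave 0.00929 for Cct6b in B10, the covariate 0.0308 for Cct8l1 in B10, and leaving out both B10 arrays of replicate 3 gave 0.00662 for Cct8l1 and 0.0613 for Hsp90b1 in B10. The mean of all probe sets gave -0.0868 for Txndc9 in B10. With 1 array left out, the range was -0.124 to 0.00929 for Cct6b in B10, -0.127 to 0.0712 for Cct8l1 in NOD and -0.127 to 0.0940 in B10, -0.389 to 0.0148 for Dnaja4 in B10, -0.0546 to 0.440 for Dnajc15 in NOD, -0.210 to 0.0841 for Hsp90b1 in B10 and -0.0531 to 0.173 for Txndc9 in B10. Over named genes and alternatives, 2375 values kept their direction and side of the threshold, 97 lost a call, 22 gained one and 22 changed sign. With only brighter genes, 64 of the 83 members remained.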
